A study of Mus musculus with 2 samples.

Results

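The subject is the set of isolated peaks in a ChIP-seq list for Flag-tagged Hes5, that is, peaks that stood far from every other listed peak. Members were chosen by position alone. A peak on chromosomes 1 to 19 was kept when the nearest other peak centre on its chromosome lay more than 500 kb away, and a first or last peak of a chromosome was judged by its 1 neighbour. The rule kept 385 of the 6451 autosomal peaks, which is 5.97% (95% Wilson interval 5.42% to 6.57%, counting error only), and left 6066 others. The whole list held 6505 peaks, of which 45 on X, 8 on Y and 1 on the mitochondrial genome were outside the rule.

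ChIP-seq sequences the DNA that an antibody pulls down with a chromatin-bound protein, and a peak is a stretch where such reads pile up. The cells came from the mouse embryonic stem cell line AinV/Bry-GFP, in which green fluorescent protein reports the mesoderm gene Brachyury. Embryoid bodies at day 3.75 were the source of the sorted GFP-positive cells, which were kept in culture for 48 h, in 1 library with doxycycline, where they made Flag-Hes5, and in 1 library without it, which was the negative control. Both libraries were pulled down with an anti-Flag antibody, which targets the tag of the introduced protein and not the cells' own Hes5. Only the list of the doxycycline library was analysed. With 1 library and no control values, Flag-Hes5 signal and background cannot be told apart at any peak, no replicate spread exists, and no test was made. Markers of the labelled cell type could not be checked, because the list carries no expression values.

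Hes5 is a basic helix-loop-helix repressor that Notch signalling switches on in many embryonic tissues. Proteins of the Hes family bind short motifs of the N-box and E-box kind and recruit co-repressors of the Groucho family. In early mesoderm, Notch signalling is known to take part in the choice between cardiac and blood fates. Mammalian chromosomes alternate between gene-rich stretches and long gene-poor ones, and distant enhancers of developmental genes can lie in the latter. Which genes or motifs lie at the isolated peaks was not analysed here, because the positions are on the build mm9, for which neither sequence nor annotation was used. For the same reason no sequence is printed.

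The isolated peaks had scores close to those of the rest of the list. The score is the authors' value from the peak caller, on a scale that the labels do not state. The median score was 252 for the 385 isolated peaks (95% interval from order statistics 233 to 274) and 247 for the 6066 others (245 to 255). The intervals overlapped, and the difference of 4.47 was small beside the width of the first. These intervals treat peaks as independent draws, which neighbours in a list are not. The quartiles were 183 and 422 among isolated peaks and 176 and 402 among the others. The lowest isolated score was 72.5, against 52.3 elsewhere. The rule did not use the scores, but they come from the same peak calls of the same library, so they are given as a description.

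The top of the scale was compared in the same way. A score above 1000 was given to 12 of the 385 isolated peaks, or 3.12% (Wilson interval 1.79% to 5.37%), against 3.89% of all autosomal peaks and 239 of the 6066 others (3.94%, 3.48% to 4.46%). A share this close to that of the whole list is not a result about isolated peaks. Of the 65 autosomal peaks with the highest scores, 1 was isolated (0.26% of the isolated peaks, 0.0459% to 1.46%) and 64 were not (1.06% of the others, 0.827% to 1.34%), and these intervals also overlapped. The 8 autosomal peaks at the ceiling of 3100 were all among the others. A count of 0 in 385 allows a share of up to 0.779% (3 counts, counting error only), which is above the 0.132% seen elsewhere. In total 34 other peaks scored above the strongest isolated one. Lower in the list, 105 isolated peaks (27.3%) lay above the upper quartile of all autosomal scores, a mark that 25% of all autosomal peaks passed by construction.

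**Figure D1:**
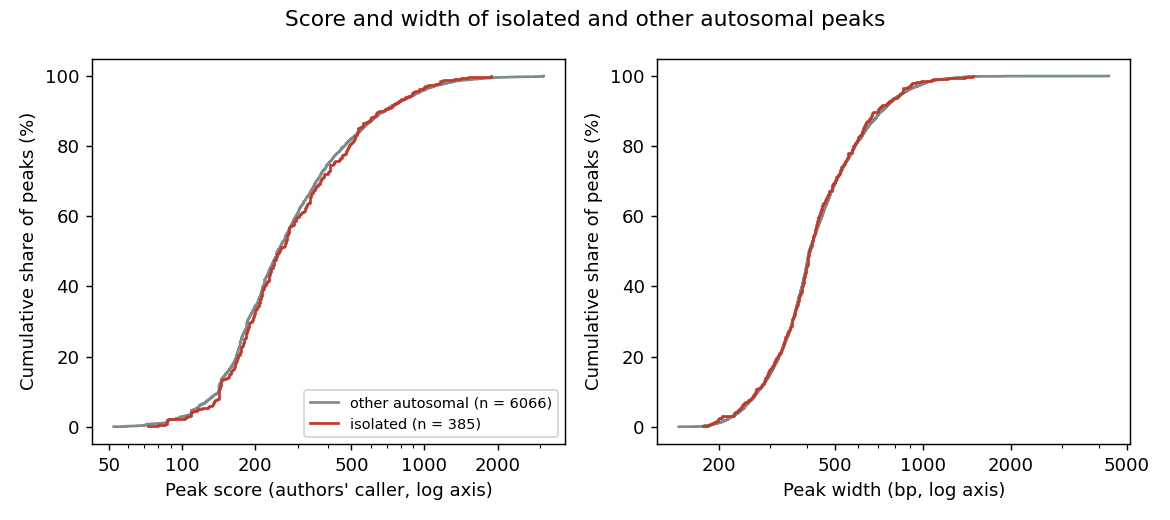
Cumulative share of peaks (vertical axis, percent) by score (left, log axis) and by width in bp (right, log axis), for the 385 isolated peaks in red and the 6066 other autosomal peaks in grey. The curves run close together on both axes, with medians of 252 against 247 for score and 408 against 407.5 bp for width, and the red curve stops at a score of 1874 where the grey one goes on to 3100.

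Widths were close as well. The median width was 408 bp for isolated peaks (95% order-statistic interval 399 to 426) and 407.5 bp for the others (405 to 413). Quartiles were 338 and 541 bp against 341 and 542 bp. The widest isolated peak spanned 1489 bp, whereas the others reached 4335 bp. The highest scores and the largest widths of the autosomal list were therefore among peaks with a neighbour within 500 kb. These numbered 6066 against 385, and a larger set is likelier to hold the extremes. At the 95th percentile the widths were 839 bp for isolated peaks and 849 bp for the others, and the scores 891 and 927.

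The strongest isolated peak was also the widest. It lay at chr3:21974898-21976386 with a score of 1874, which placed it 35th among all autosomal peaks. Its nearest neighbours were 2764 kb to the left and 3067 kb to the right, and no other peak lay within 2.5 Mb. The next strongest, at chr10:98376607-98378005, scored 1514 over 1399 bp and stood 1079 kb from the nearest peak. These 2 peaks headed the members in both score and width.

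The third and the fourth by score differed sharply in shape. The peak at chr2:169956295-169957131 scored 1418 over 837 bp and lay 539 kb from its neighbour, in a stretch with 21 other peaks within 2.5 Mb. The peak at chr4:73897652-73897933 scored 1323 over only 282 bp, at 2036 kb from its neighbour. The fifth, at chr5:17080294-17080626, was narrow as well, with a score of 1186 over 333 bp. Those on chromosomes 4 and 5 were the only isolated peaks to combine a score above 1000 with a width under the autosomal median. The other list members with that combination numbered 7, which is 0.115% of the others (Wilson interval 0.0559% to 0.238%) against 0.519% of isolated peaks (0.143% to 1.87%). Over all 6451 autosomal peaks it was 9, or 0.14%. The isolated share rests on 2 peaks, and the intervals overlapped. That comparison was made after the values were seen. Whether these peaks lie in repeated sequence was not examined.

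The remaining 7 isolated peaks above 1000 ranged from 757 to 1069 bp in width. The peak chr13:51195948-51197016 scored 1163. Chromosome 9 carried a pair of them, chr9:24307251-24308007 with a score of 1161 and chr9:68501197-68502024 with a score of 1150. Chromosome 16 had chr16:76372508-76373424 at 1159. A peak at chr3:119485521-119486372 scored 1109. The last 2 were at chr4:13670182-13670963, at 1036, and at chr2:77118232-77119052, at 1008. The 12 strongest members were thus spread over 8 chromosomes and stood 536 to 2764 kb from their nearest neighbour.

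At the weak end, the lowest score of 72.5 belonged to chr9:123833567-123833942, the last listed peak of that chromosome. A peak at chr4:146778524-146778927 scored 79.4, and a further peak at chr9:116084115-116084487 scored 85.3. All 3 were close to the median in width, at 373 to 404 bp. The widest member after the leading pair was a peak at chr3:27608893-27610110, with 1218 bp but a score of only 560.

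Score and width were linked in a way that a single coefficient hides. Over all 385 isolated peaks, Spearman's rho was 0.52 and Pearson's r was 0.69. Among the 193 isolated peaks no wider than the autosomal median of 408 bp, however, rho was -0.44, so narrower peaks had higher scores. Among the 192 wider ones rho was 0.67. The other peaks showed the same turn, with -0.33 over 3045 peaks and 0.62 over 3021. All points share 1 library and 1 caller, so these values describe the list.

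**Figure D2:**
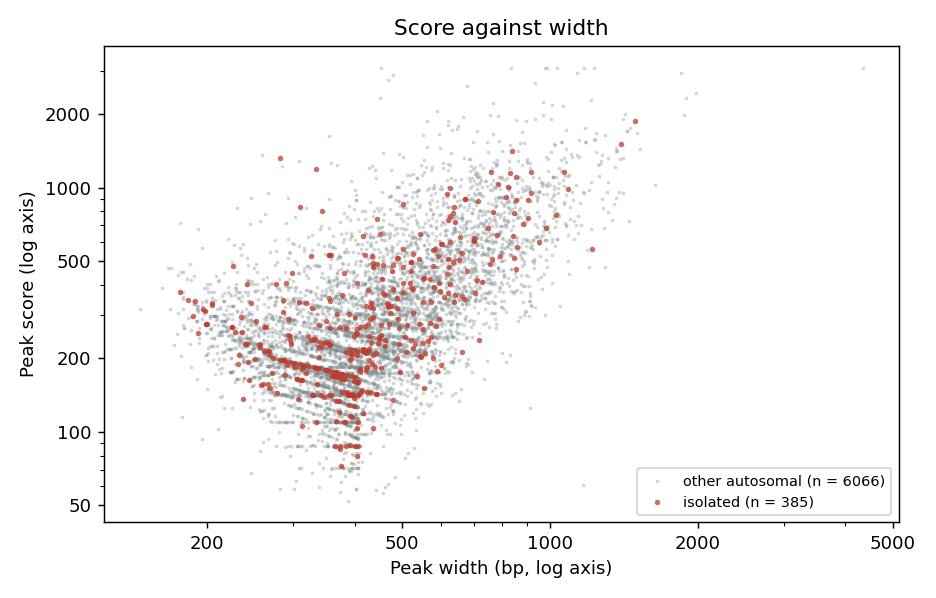
Score (vertical, log axis) against width in bp (horizontal, log axis) for every autosomal peak, isolated ones in red and others in grey. Scores fall with width up to about the median of 408 bp and rise beyond it in both sets, and the 2 red points at upper left are the narrow, strong peaks on chromosomes 4 and 5 with scores of 1323 and 1186.

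At like width the isolated peaks again sat close to the rest. In the narrowest quartile of width the median score was 222 for 100 isolated peaks and 216 for the others. In the next quartile the medians were 169 for 93 isolated peaks and 172 for the others. They were 276 against 266 in the third quartile and 542 against 528 in the widest, where 95 isolated peaks fell. Each of the 4 medians of the others lay inside the 95% interval of the isolated median. Read the other way, the share of peaks that were isolated was 5.45% in the lowest quartile of score, 6.33% in the second, 5.58% in the third and 6.51% in the highest, and every one of these intervals contained the overall 5.97%.

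Isolation itself came in degrees. The distance from an isolated peak to the nearest other centre had a median of 786 kb and quartiles of 614 and 1162 kb. It passed 1 Mb for 143 peaks and 2 Mb for 24. The most remote was a peak at chr8:55614741-55615533, with a score of 525, which lay 4351 kb from one neighbour and 5621 kb from the other. Next came chr18:89063182-89063852, the last listed peak of its chromosome, with a score of 899 and a single neighbour at 4305 kb. A peak at chr4:25728422-25728844 scored 185 at 3444 kb. The peak chr1:145549819-145550261 scored 143 at 3407 kb. The fifth lay at chr14:112074771-112075433 and scored 359 at 3365 kb. Among these 5 the scores ran from 143 to 899, so remoteness went with both weak and strong peaks.

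Across distance classes the median score changed little. It was 248 for 960 peaks with a neighbour within 1 kb, 242 at 1 to 10 kb, 246 at 10 to 100 kb, 255 at 100 to 250 kb and 246 at 250 to 500 kb. Within the isolated set it was 240 for 242 peaks at 500 to 1000 kb (95% interval 224 to 269), 273 for 119 peaks at 1 to 2 Mb (230 to 313) and 290 for 24 peaks beyond 2 Mb (210 to 443). The last intervals are wide and contain the values of the nearer classes. With isolation set at 1 Mb instead of 500 kb, the median was 276 for 143 peaks (238 to 311) against 247 for the rest, a difference of 28.8 in place of 4.47. Within the isolated set, Spearman's rho with distance was 0.02 for score and 0.07 for width (n = 385).

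**Figure D3:**
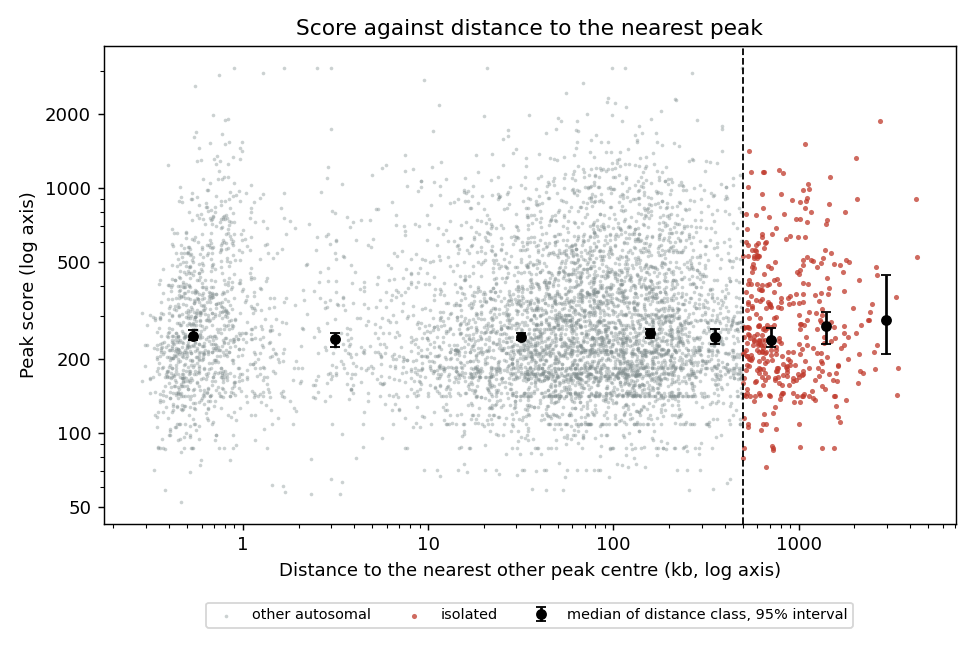
Score (vertical, log axis) against distance to the nearest other peak centre in kb (horizontal, log axis), with isolated peaks in red to the right of the dashed line at 500 kb. Black points are medians of distance classes, drawn at the geometric middle of each class, with 95% order-statistic intervals; they run from 240 to 290, and the widest interval belongs to the 24 peaks beyond 2 Mb.

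The threshold cuts through a continuous range of distances. Just inside it were the weak peak at chr4:146778524-146778927 at 500.03 kb, a peak at chr18:84758344-84758697 at 500.7 kb with a score of 530, and a peak at chr1:137043722-137044163 at 500.8 kb with a score of 210. Just outside were peaks at chr5:149363762-149364310 at 499.3 kb, at chr13:114408522-114408866 at 498.2 kb and at chr7:138506325-138506705 at 497.1 kb, with scores of 276, 145 and 213.

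The distances to the neighbours on either side are those that the rule used, so they only describe the isolated peaks. Of the 372 with a neighbour on each side, the farther neighbour lay at a median of 1701 kb. The farther distance was 1.84 times the nearer one in the median. That ratio cannot be under 1, and it was not computed for the other peaks. The nearer neighbour was on the left for 178 and on the right for 194. The other 13 members were the first (7) or last (6) listed peak of a chromosome and were judged on 1 side only. Intervals between neighbouring centres with an isolated peak at an end added up to 930 Mb, which is 39.1% of the 2380 Mb between the first and last listed autosomal centres. The isolated peaks thus made up 5.97% of the autosomal list but bordered a far larger part of the span, which follows in part from the rule.

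The number of peaks around each member was counted on a larger scale. This count is not independent of the rule, since the window includes the 500 kb on each side that the rule leaves empty for isolated peaks and requires to be occupied on at least one side for the others. Within 2.5 Mb on either side, isolated peaks had a median of 7 other peaks (quartiles 3 and 11), against 19 for the others (12 and 31). No other peak lay in that window for 11 isolated peaks, which the rule makes impossible for the others. At least the autosomal median of 18 was reached by 41 isolated peaks, or 10.6%, against 52.2% of all autosomal peaks and 54.9% of the others. At this scale the surroundings of those 41 were therefore not poor in peaks. The extreme case, singled out after its value was seen, was a peak at chr2:165980077-165980776 with a score of 603, which had 44 others within 2.5 Mb but none within 518 kb. Windows reach past the listed span near chromosome ends, which lowers their counts.

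The longest empty stretches were not always flanked by isolated peaks. Of the 20 longest autosomal stretches without a peak, 2 had an isolated peak at both ends, 7 at a single end and 11 at neither. Over the whole autosomal list 5.97% of peaks were isolated. A peak beside such a stretch already meets the rule on that side, so these counts are partly built in. The longest, of 13.1 Mb at chr15:12251908-25343165, ended on both sides at a peak with another one within 500 kb. With centres within 1 kb merged, the counts were 2, 8 and 10 of the 20. After that merging, the right end of the 13.1 Mb stretch was an isolated region of 2 peaks, 571 kb from its nearest neighbour. Without merging, the longest with an isolated peak at an end ran for 8.67 Mb at chr14:90308820-98982518. The 2 with isolated peaks at both ends were at chr4:65780943-71861857 and at chr14:106296390-112074770.

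Runs of isolated peaks describe the same distances that the rule used. A gap of more than 500 kb beside one member already meets the condition on one side for the next peak, so that members follow each other is partly built in, and 5.97% of all autosomal peaks were isolated. They formed 247 runs of consecutive isolated peaks, of which 164 were single peaks. The other 83 runs held 221 of the 385 peaks. There were 47 runs of 2, 27 of 3, 2 of 4, 4 of 5 and 3 of 6. The nearest neighbour of an isolated peak was itself isolated in 131 cases and not in 254.

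The 3 runs of 6 lay on chromosomes 4, 10 and 12. The run on chromosome 4 spanned 15.3 Mb (chr4:65780609-81088863), and its scores in order were 183, 256, 1323, 380, 256 and 409. On chromosome 10 the run spanned 9.55 Mb (chr10:97156435-106701841) with scores of 165, 1514, 198, 311, 223 and 190. Each of these 2 runs held 1 of the 4 strongest isolated peaks between much weaker ones. The run on chromosome 12, over 10.0 Mb (chr12:41750583-51750259), had no such peak, with scores of 474, 323, 142, 456, 266 and 220.

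**Figure D4:**
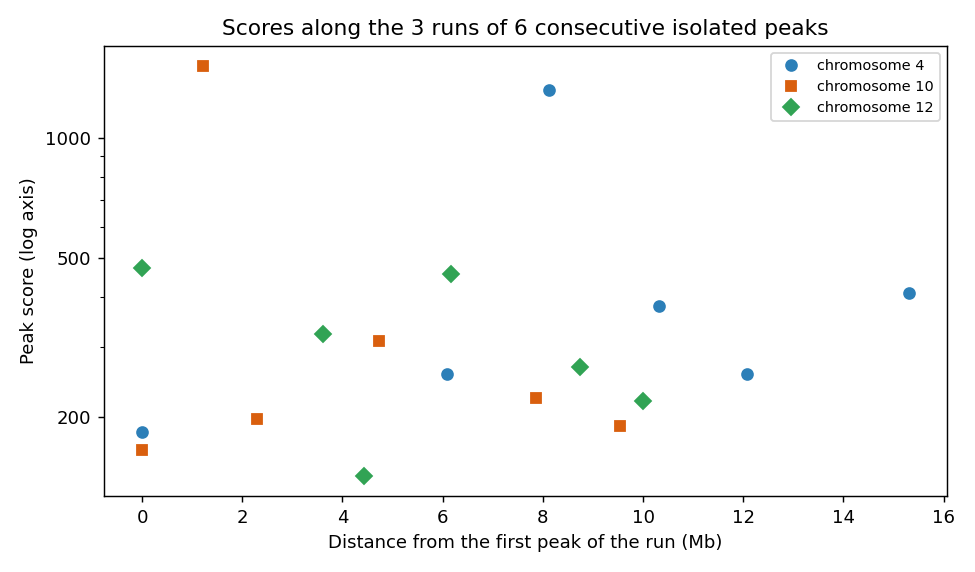
Score of each peak (vertical, log axis) by its distance in Mb from the first peak of its run (horizontal), for the 3 runs of 6 consecutive isolated peaks. On chromosomes 4 and 10 a single peak, at 1323 and 1514, stands above the rest, while the 6 on chromosome 12 lie between 142 and 474.

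The strengths of neighbouring peaks showed almost no relation. Spearman's rho between the score of an isolated peak and that of its nearest neighbour was 0.01 (n = 385), and for the other peaks it was 0.02 (n = 6066). The isolated peak was the stronger of the 2 in 207 cases and the weaker in 178. The nearest neighbours had a median score of 249. Some peaks enter these counts more than once, as members and as neighbours of members. Where 2 isolated peaks were each other's nearest neighbour, the pair added equally to both counts, so that part is even by construction.

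The share of isolated peaks varied between chromosomes and was lower on those more densely covered with peaks. Chromosome 16 had the highest share, with 23 of its 210 peaks isolated (11.0%, Wilson interval 7.41% to 15.9%). Chromosome 14 followed with 21 of 215 (9.77%, 6.48% to 14.5%) and chromosome 3 with 27 of 277 (9.75%, 6.79% to 13.8%). The intervals of these 3 lay above the overall 5.97%. The lowest share was on chromosome 11, with 13 of 515 (2.52%, 1.48% to 4.27%), an interval wholly below the overall share. Chromosomes 9, 17 and 10 came next from below, at 3.92%, 3.96% and 4.01%, but their intervals reached past 5.97%. All 19 autosomes were inspected, and peaks within a chromosome are not independent, so the intervals are too narrow.

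In numbers, chromosome 2 held the most isolated peaks, 35, or 9.09% of the set against 8.23% of the other peaks. Chromosome 11 held 3.38% of the set but 8.28% of the others, and chromosome 16 held 5.97% against 3.08%. Per Mb of listed span, isolated peaks ranged from 0.11 on chromosome 11 to 0.242 on chromosome 16, while all listed peaks ranged from 1.82 on chromosome 3 to 4.34 on chromosome 11. Over the 19 chromosomes, Spearman's rho between the share isolated and the peaks per Mb was -0.82. More peaks per Mb leave less room between them, so part of this relation is built into the rule.

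**Figure D5:**
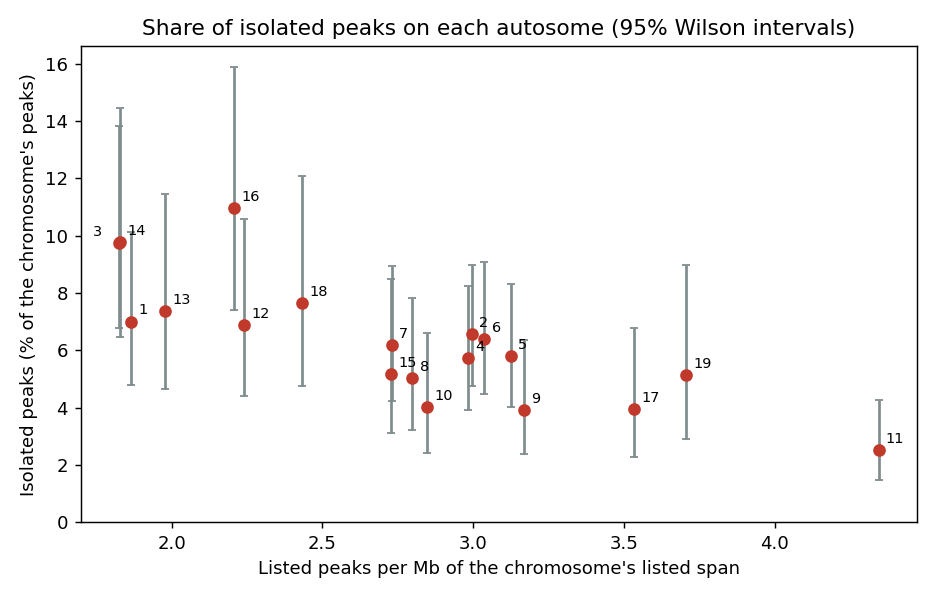
Share of each autosome's peaks that were isolated (vertical, percent, with 95% Wilson intervals) against listed peaks per Mb of its listed span (horizontal), labelled by chromosome. Chromosome 11, the densest at 4.34 per Mb, has the lowest share at 2.52%, and chromosome 16 has the highest at 11.0%.

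Strength did not follow one direction over chromosomes. The median score of isolated peaks was above that of the other peaks on 10 autosomes and below it on 9. The gap was widest on chromosome 19, where 11 isolated peaks had a median of 447 against 249. On chromosome 17 it was 395 against 247 with 12 isolated peaks, and on chromosome 15 it was 374 against 256 with 14. In the other direction, the 23 isolated peaks of chromosome 16 had a median of 176 against 242, and the 13 of chromosome 11 had 201 against 246. These sets are small, and the differences were not tested.

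Some groups of peaks within 1 kb of each other stood alone, and the rule leaves these out because each peak is the near neighbour of the next. When centres within 1 kb were merged, 416 isolated regions were found among 5946. They were the 385 single peaks and 31 regions of several peaks, of which 28 held 2 and the largest held 4. Regions of several peaks made up 7.45% of isolated regions (Wilson interval 5.30% to 10.4%) and 7.67% of the other 5530 (7.0% to 8.40%). Their strongest peak had a median score of 469 when isolated (n = 31, 95% interval 313 to 615) and 362 when not (n = 424, 338 to 386). The first interval contains the second, and the difference was not tested. Among the 31 isolated regions of several peaks, the strongest peak lay at chr13:15554803-15555557, with a score of 1987, above every single isolated peak. The next was at chr14:115439503-115440505, with a score of 1905, in a region of 3 peaks that stood 3365 kb from its neighbour. That neighbour was the isolated peak at chr14:112074771-112075433 described above.

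The scores were compared with values that a Poisson model gives, expressed as log10 probability multiplied by -10. With the background set to a whole number from 1 to 8 reads, such a value lay within 0.006 of the score for 86 of the 385 isolated peaks, or 22.3% (Wilson interval 18.5% to 26.8%), against 23.3% of all autosomal peaks. For the 85 with a single solution, the median read number that solves the score was 38 (quartiles 24 and 52), over a background of 3 reads (quartiles 2 and 4). For 1413 other peaks the medians were 34 reads (24 and 52) and 3 background reads (3 and 5). The ratio of reads to background had a median of 11.3 among isolated peaks and 10.3 among the others. These numbers are solved from the score, hold only for peaks that match such a value, and are not read counts from the library. The share of scores that would match by coincidence was not worked out.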

How the data were processed

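Anti-Flag ChIP-seq was made from mouse cells in 2 libraries of 1 replicate each, grouped by the sample titles. The deposited file gives each peak of the doxycycline library a score, and the deposited peak names carry the prefix MACS, numbered 1 to 6505 with 0 numbers missing. Per the submitters' processing notes, Bowtie 1.0, HOMER and mm9 were used, in roles not given; the sources used here state neither caller settings nor use of the control. Depth is unknown, as the list holds no counts.

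Starts were read as counted from 0 and printed from 1. Distances are between centres. Medians carry order-statistic intervals and shares carry Wilson intervals, at 95%. The functions for isolation by centres and for median intervals were tested on simulated data, and those for merging and Wilson intervals were not. Members and comparisons were chosen with earlier results of these data known. Named peaks are the 12 with the highest score, the 5 most remote, the 3 weakest, the 3 widest and the 3 on each side of the threshold; others were named after their values were seen, as were the windows of 2.5 Mb, gaps and distance classes. Alternatives were other distances, edges in place of centres, end peaks left out, merging, a score minimum and leaving out chromosomes. Python 3.11.15, numpy 2.4.6, pandas 2.3.3, scipy 1.17.1 and matplotlib 3.10.9 were used.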

Additional observations from a re-analysis of the deposited data

How the results depend on the processing

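Of 102 alternative values, 92 stayed within the limits used and 10 did not. The limits were 1.5 times for the count, the Wilson interval for shares and the order-statistic interval for median differences. Most alternatives left out a single chromosome, and all of those stayed within the limits. For the count this was fixed beforehand, since no chromosome held more than 35 of the 385 isolated peaks. All 10 values that moved came from the other settings. By construction, isolation at 250 kb gave 885 peaks (13.7%) and at 1 Mb 143 (2.22%), with highest chromosomal shares of 28.2%, on chromosome 3, and 3.82%, on chromosome 12; chromosome 11 had the lowest share at each distance. Merging and removing scores under the lower quartile, which leave fewer peaks, gave shares of 7.0% and 8.80%. The difference in median score was 28.8 at 1 Mb, and that in width was -13.5 bp with low scores removed; the cause was not tested. The score difference had no stable sign, at -0.855 with 250 kb, -0.93 without end peaks and -6.22 with low scores removed, and ran from -1.43 to 8.04 with each chromosome left out. Gene starts and motifs were not run, since no mm9 sequence was used. No paired analysis was possible because there was only 1 library in each group. Unknown depth leaves sites under the caller's threshold, which could lie beside an isolated peak, unseen.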

Other observations

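Many scores recurred exactly. A score shared with at least 1 other autosomal peak was held by 177 of the 385 isolated peaks (46.0%, Wilson interval 41.1% to 51.0%) and by 2768 of the 6066 others (45.6%, 44.4% to 46.9%). The most frequent value, 142.14, belonged to 101 autosomal peaks, of which 10 were isolated. The next were 184.99 with 86 peaks (3 isolated), 109.28 with 77 (4), 218.93 with 53 (2), 145.13 with 52 (4) and 173.8 with 51 (0), beside 5.97% isolated over the whole autosomal list.

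The 9 autosomal peaks that were both above a score of 1000 and narrower than the median fell into unlike surroundings. Besides the isolated pair on chromosomes 4 and 5, 2 lay within chr9:3002003-3023658, with scores of 1239 and 1357 and neighbours within 1 kb. The strongest was at chr12:33504978-33505332, with a score of 1620 and a neighbour at 0.543 kb. Repeat content and control signal at these places were not analysed here.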
